A study of Mus musculus with 168 samples.

Results

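Messenger RNA was compared between the cortex of 10-month-old mice with a Q92 allele of Htt and that of 10-month-old mice with a Q20 allele, with 8 libraries on each side. These 16 libraries were chosen by the genotype and age in their labels, out of 168 libraries of the whole series, which spans 7 genotypes and ages of 2, 6 and 10 months with 8 libraries in each of 21 groups. Q92 mice were C57BL/6 heterozygotes that carried 1 knock-in Htt allele with a nominal 92 CAG repeats beside a normal allele, at 10 months, with 4 female and 4 male libraries. Q20 mice were C57BL/6 heterozygotes with a nominal 20 repeats, an unexpanded length, on the knock-in allele, at the same age and with 4 libraries of each sex. Wild-type (WT) C57BL/6 mice and heterozygotes of the Q80, Q111, Q140 and Q175 alleles at 10 months, 8 libraries each, and Q92 and Q20 mice of 2 and 6 months served as further comparisons. Q92 mice were caged with other Q92 mice, whereas WT mice were caged with Q20 mice, so that housing and allele cannot be told apart in Q92 against Q20. Each mouse kept a normal Htt allele, and the labels give no transgene and no cell-type restriction. The labels name the libraries as separate samples and do not say more of the animals, and the p-values measure the spread between these libraries.

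Huntingtin, the product of Htt, is a large scaffold protein of vesicle transport, and a stretch of glutamines near its start is encoded by the CAG repeat. Long repeats cause Huntington's disease, in which striatal projection neurons and cortical neurons are affected, with earlier onset for longer repeats. Neurons switch on immediate early genes when they fire, nearly all cells run a daily clock of transcription factors, and oligodendrocytes wrap axons in myelin.

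The promoters of 4 of the genes described below are shown because the results turn on these genes. Drc1 and Dbp, 2 of the 4 named genes with the smallest p-values, are followed across ages and alleles, and Fosb and Fos stand for the immediate early genes. Each is 250 bases before and 50 after the RefSeq start (GRCm38.p6), written 5′ to 3′ on the strand of the gene. Drc1 is on the plus strand (chr5:30281143-30281442), Dbp on the plus strand (chr7:45704997-45705296), Fosb on the minus strand (chr7:19309996-19310295) and Fos on the plus strand (chr12:85473640-85473939).
Drc1: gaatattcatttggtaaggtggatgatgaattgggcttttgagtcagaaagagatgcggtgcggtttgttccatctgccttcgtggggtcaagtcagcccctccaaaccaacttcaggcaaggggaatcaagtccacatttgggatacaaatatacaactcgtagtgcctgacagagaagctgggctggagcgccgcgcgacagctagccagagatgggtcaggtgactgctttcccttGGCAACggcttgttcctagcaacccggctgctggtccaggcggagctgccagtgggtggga
Dbp: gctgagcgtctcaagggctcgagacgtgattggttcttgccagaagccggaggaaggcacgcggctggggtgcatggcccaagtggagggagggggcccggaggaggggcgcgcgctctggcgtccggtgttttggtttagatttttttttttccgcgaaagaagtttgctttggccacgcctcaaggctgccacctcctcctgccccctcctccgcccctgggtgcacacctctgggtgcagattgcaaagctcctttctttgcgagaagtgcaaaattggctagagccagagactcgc
Fosb: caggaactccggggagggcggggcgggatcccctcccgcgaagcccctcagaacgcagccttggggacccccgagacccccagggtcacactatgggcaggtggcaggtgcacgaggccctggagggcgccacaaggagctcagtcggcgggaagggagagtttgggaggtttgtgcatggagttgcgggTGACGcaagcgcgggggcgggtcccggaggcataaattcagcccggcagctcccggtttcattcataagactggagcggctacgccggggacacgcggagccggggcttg
Fos: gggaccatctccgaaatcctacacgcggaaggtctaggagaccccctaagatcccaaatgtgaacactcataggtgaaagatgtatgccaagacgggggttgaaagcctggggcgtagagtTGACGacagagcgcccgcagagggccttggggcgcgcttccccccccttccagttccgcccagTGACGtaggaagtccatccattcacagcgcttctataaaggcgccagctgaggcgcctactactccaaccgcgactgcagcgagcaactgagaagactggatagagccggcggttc
Capitals mark the motifs searched on both strands, none of which overlap in the sequences shown. TGACG, a cAMP response element half-site bound by CREB, was in capitals once in Fosb, with its first base 60 bases before the start, and 2 times in Fos, 129 and 66 bases before it, and 20.8% of 32851 RefSeq promoters of the same length held it. GGCAAC, a half-site of the X-box bound by RFX factors of ciliated cells, was in capitals once in Drc1, 11 bases before the start, and 12.5% of promoters held it. The E-box CACGTG (7.15% of promoters) and the D-box TTATGTAA (0.938%) had no match in these 4 windows. Of the other 2 genes with the smallest p-values, Sec16b held TGACG 44 bases before its start and Prkag2 held none of the motifs. Fosb, Fos and the half-site motifs were chosen after values and sequences were seen, and a match in a sequence is a description only.

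The 16 libraries held 30646443 to 36923561 counts in Q92 and 31271753 to 43744151 in Q20, totals that did not differ beyond their spread (p = 0.387, two-sided exact permutation test). Levels are given as CPM, that is counts set to the same total in every library, and differences as log2 of Q92 over Q20 with the standard error (SE). Xist, the RNA of the inactive X chromosome, lay at 1211 to 1470 CPM in females and at most 1.53 in males, and Ddx3y, on the Y chromosome, at 65.1 to 75.8 CPM in males and at most 0.0885 in females, so each library matched its labelled sex. Male 2 of Q92 and male 2 of Q20 stood apart from the rest, with a median correlation under 0.99 with the other libraries of 10 months, as did 4 other libraries of the 56.

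Htt itself was first looked at in every library. Htt (ENSMUSG00000029104, GRCm38 chromosome 5 from 34761740 to 34912534) lay at 154, 208 and 221 CPM (lowest, median and highest of 8 libraries) in Q92, against 146, 207 and 213 CPM in Q20. The groups overlapped almost fully, and the lowest library of each was its male 2. The log2 difference was 0.03 ± 0.08 (95% confidence interval -0.13 to 0.20, adjusted p = 0.997), and it was -0.02 without male 2 of Q20. Gene counts do not tell the knock-in allele from the normal one, so this does not check the repeat length.

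Of 17219 genes tested for Q92 against Q20 at 10 months, 0 (0%) passed an adjusted p of 0.05 in edgeR's quasi-likelihood test with Benjamini-Hochberg adjustment, and the smallest adjusted p was 0.29. DESeq2 also called 0 genes. An unadjusted p under 0.05 was found for 893 genes (5.19%) in edgeR and 882 in DESeq2. By this weaker rule 484 genes (2.81%) were higher and 409 (2.38%) lower in Q92. The median difference over all genes was 0.0002 and the biological coefficient of variation 0.098. A missed threshold does not show that the groups are alike, and the intervals give what the data allow. For 92.7% of genes at 10 CPM or more, the 95% interval lay within a 1.2-fold change in either direction. That share was 40.5% between 1 and 10 CPM and 0.0388% under 1 CPM. Over all genes, 88.1% had intervals within 1.5-fold and 96.9% within 2-fold.

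**Figure D1:**
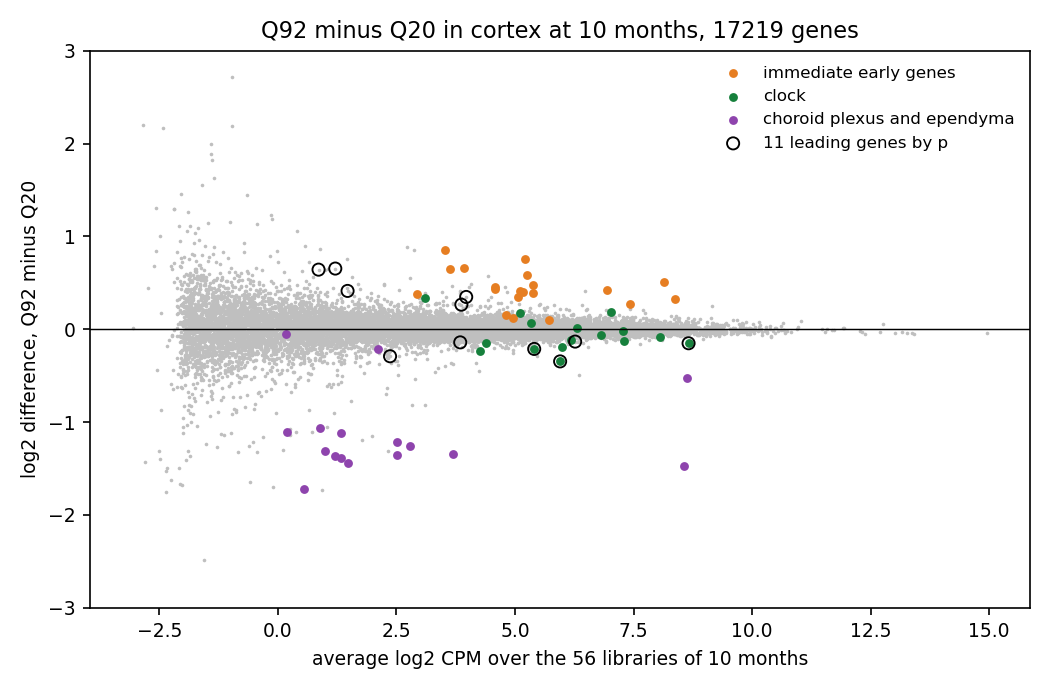
Each of the 17219 genes tested is a point, with its average log2 CPM over the 56 libraries of 10 months on the x axis and its log2 difference, Q92 minus Q20, on the y axis. Immediate early, clock and choroid plexus genes are coloured and the 11 genes described next circled: the 20 immediate early genes lie above 0, the 16 choroid plexus genes below it, and no point passed the adjusted threshold.

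The 11 genes described next were chosen for the smallest p-values in each direction, and none of them passed the adjusted test. Those higher in Q92 were Sec16b, Drc1, Tmem252, Ptgs2 and Fsbp. Those lower were Prkag2, Dbp, Tef, Homez, Thsd7b and Bhlhe41. Dbp, Tef and Bhlhe41 encode transcription factors of the daily clock, and Ptgs2 the inducible cyclooxygenase of activated neurons.

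Drc1 (ENSMUSG00000073102, chromosome 5 from 30281388 to 30366695), a subunit of the nexin-dynein regulatory complex that holds motile cilia together, lay at 14.8, 15.5 and 18.2 CPM in Q92, against 12.3, 13.2 and 13.9 CPM in Q20. All 8 Q92 libraries stood above all 8 Q20 libraries. The log2 difference was 0.27 ± 0.06 (interval 0.15 to 0.39, adjusted p = 0.35 in edgeR). Of the ependymal genes, whose cells carry such cilia, Foxj1 differed by -0.21 ± 0.14 and Ccdc153 by -0.05 ± 0.22. Its midpoint stands at -4.51 Mb from that of Htt on the same chromosome.

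Sec16b (ENSMUSG00000026589, chromosome 1 from 157506728 to 157568425), which organises the exit sites of the endoplasmic reticulum, had the smallest p of all genes. It lay at 2.68, 2.94 and 3.81 CPM in Q92, against 1.45, 2.37 and 2.80 CPM in Q20. In Q92, 5 libraries stood above all of Q20, and the groups overlapped in the other 3. The log2 difference was 0.41 ± 0.09 (interval 0.24 to 0.59, adjusted p = 0.29 in edgeR). Over the same Q20 libraries, WT differed from Q20 by 0.32 in this gene, and Q92 differed from WT by 0.10 ± 0.09.

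Ptgs2 (chromosome 1 from 150100031 to 150108227) lay at 13.7, 18.3 and 20.6 CPM in Q92, against 11.9, 13.8 and 17.3 CPM in Q20, with a log2 difference of 0.35 ± 0.09 (interval 0.17 to 0.53, adjusted p = 0.43). The 5 Q92 libraries above all of Q20 included all 4 males, which lay at 19.2 to 20.6 CPM, while the Q20 males lay at 11.9 to 13.9 CPM. Tmem252 (chromosome 19 from 24674008 to 24682233), a membrane protein, lay at 1.74, 2.43 and 4.89 CPM in Q92, against 1.27, 1.69 and 2.19 CPM in Q20, a difference of 0.65 ± 0.17 (interval 0.32 to 0.99, adjusted p = 0.43). Fsbp (chromosome 4 from 11579665 to 11587591) lay at 1.07, 2.10 and 2.60 CPM in Q92, against 0.826, 1.31 and 1.8 CPM in Q20, a difference of 0.64 ± 0.17 (interval 0.31 to 0.97, adjusted p = 0.43). Both genes had Q92 libraries inside the Q20 range. Fsbp lies within Rad54b on the same strand, so that reads could be shared between them, and Rad54b differed by -0.01.

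Prkag2 (chromosome 5 from 24862744 to 25100642), a regulatory subunit of the energy sensor AMPK, was lower in all 8 Q92 libraries than in any of Q20. It lay at 70.9, 76.3 and 78.6 CPM in Q92, against 78.8, 81.8 and 86.0 CPM in Q20, and the log2 difference of -0.13 ± 0.03 (interval -0.20 to -0.07, adjusted p = 0.37) was small. Tef (chromosome 15 from 81802421 to 81826863), a relative of Dbp, lay at 357, 381 and 412 CPM in Q92, against 387, 424 and 459 CPM in Q20, a difference of -0.15 ± 0.04 (interval -0.23 to -0.07, adjusted p = 0.43). The Tef levels overlapped in 3 of the Q92 libraries. Homez, a homeobox gene, differed by -0.14 ± 0.04 (adjusted p = 0.43) and Thsd7b, with thrombospondin repeats, by -0.29 ± 0.08 (adjusted p = 0.50). In Homez WT differed from the same Q20 libraries by -0.13, and Q92 differed from WT by -0.01. Over all genes, the 8 Q92 and 8 Q20 libraries did not overlap for 6 genes (0.0348%). Among them, Drc1 and Enpp6 were higher, and Prkag2, Fbxo21 and Wwp1 were lower, the last 2 of which were picked out by this count and belong to ubiquitin ligases (-0.08 ± 0.03 and -0.07 ± 0.04).

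**Figure D2:**
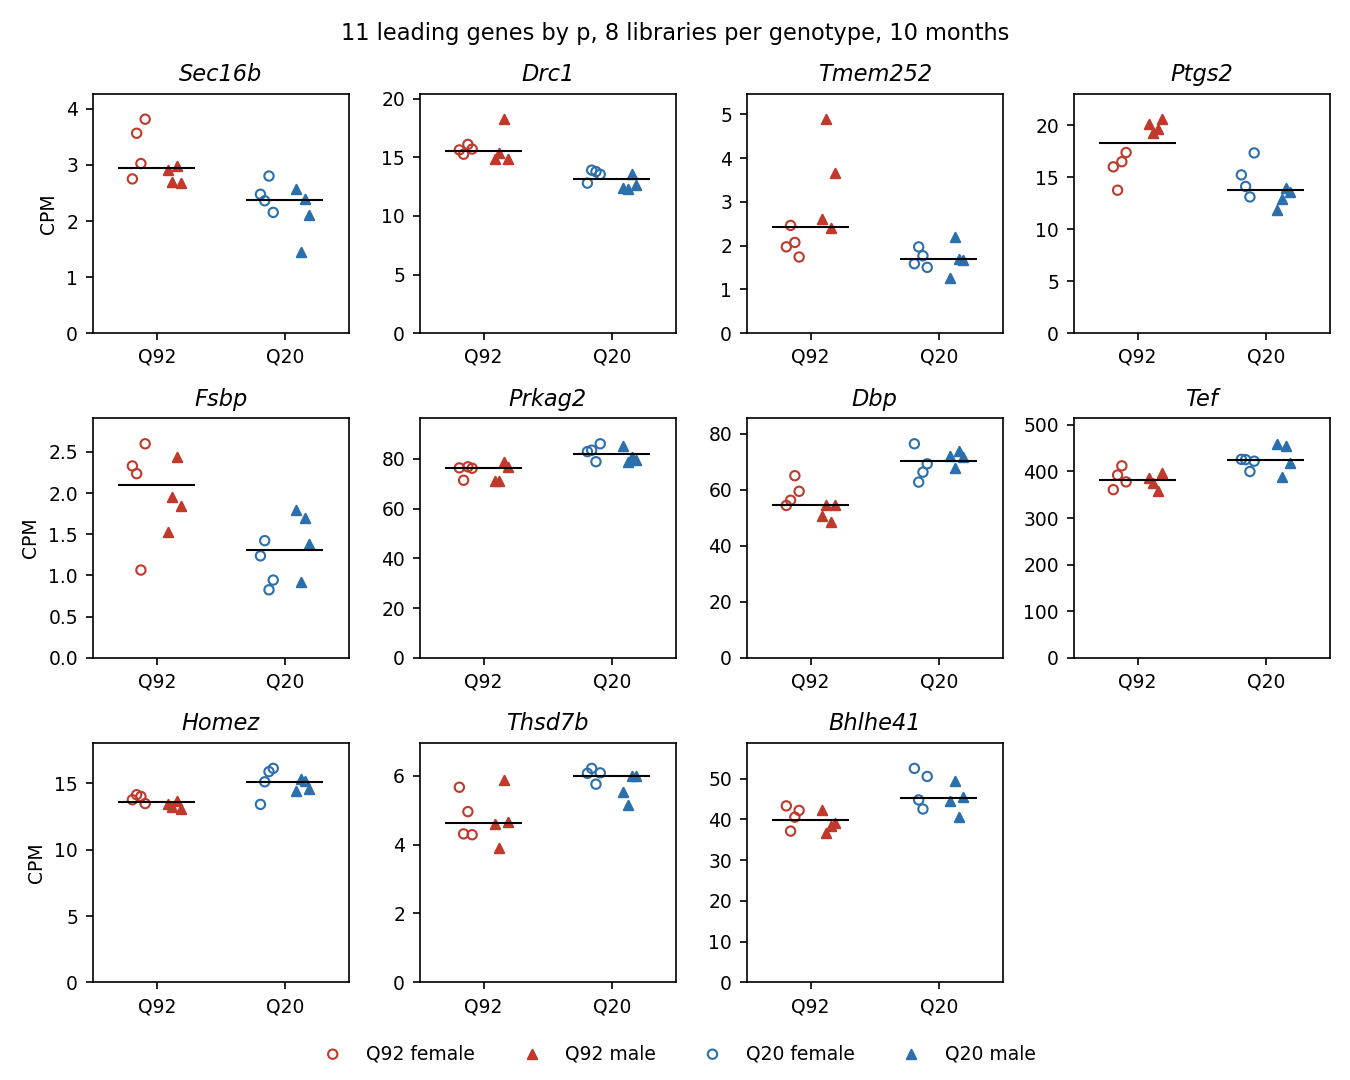
CPM per library (y axis, from 0) for the 11 leading genes by p-value, with Q92 left of Q20, open circles for females, triangles for males and a line at each group's median. Drc1 and Prkag2 show no overlap of the groups, and the other 9 genes overlap in part.

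The same genes were followed in other animals, at 2 and 6 months, in fits of those ages. At 2 months, 6 of the 11 had the direction seen at 10 months, and at 6 months 2 of the 11 did. Drc1 and Thsd7b kept their direction at both ages, Thsd7b with -0.11 at 2 months and -0.01 at 6 months. At 2 months Drc1 lay at 15.4, 18.5 and 20.2 CPM in Q92, against 14.4, 15 and 16 CPM in Q20, and it rose by 0.28 ± 0.05 (adjusted p = 0.024 in edgeR over all genes of that age), 1 of 5 genes called at that age (0.0291%). At 6 months it lay at 15.5, 17.1 and 20.6 CPM in Q92, against 14.4, 15.4 and 16.6 CPM in Q20, with a difference of 0.17 ± 0.05 that did not pass (adjusted p = 0.10). Both ages had Q92 libraries inside the Q20 range. Tef went the other way at 6 months, with 0.11 (adjusted p = 0.056) and an unadjusted p under 0.05. At 6 months 170 genes (0.965%) passed, 142 higher and 28 lower, and the transcripts that differ there include the liver genes given further on.

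**Figure D3:**
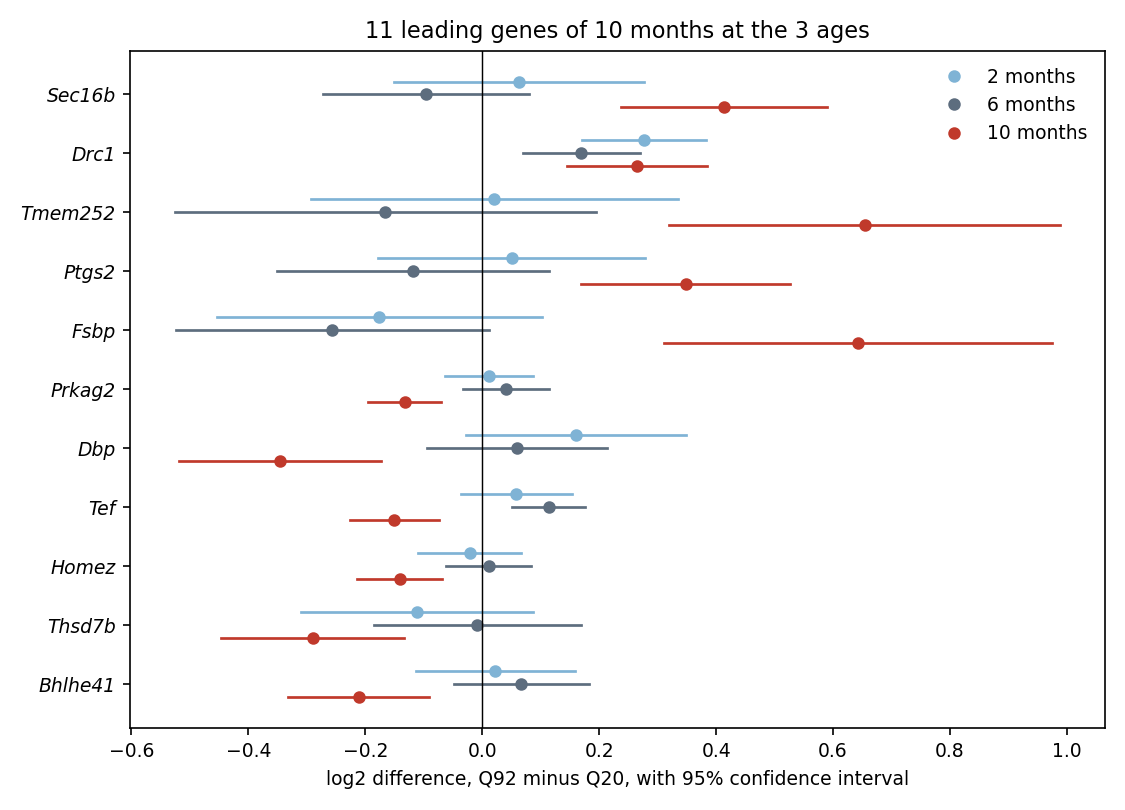
Log2 difference, Q92 minus Q20, with its 95% confidence interval (x axis) for the 11 leading genes (rows) at 2, 6 and 10 months, each from separate animals. Drc1 lies above 0 at each age, whereas Tef lies on opposite sides of 0 at 6 and 10 months.

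Drc1 was also set beside the other alleles, in differences that all share the same Q20 libraries. It differed from Q20 by 0.23 in Q80, 0.28 in Q111, 0.18 in Q140, -0.01 in Q175 and 0.07 in WT. The medians were 15.5 CPM in Q92, 15.8 in Q80, 15.8 in Q111, 15.4 in Q140, 13.4 in Q175, 13.3 in WT and 13.2 in Q20. These 4 alleles, Q92, Q80, Q111 and Q140, had medians above 15 CPM, while Q175, WT and Q20 had medians close to each other. Against WT, Drc1 was 0.20 ± 0.06 higher in Q92 and did not pass (adjusted p = 0.55).

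The clock genes hold a loop in which Arntl (BMAL1) and its partner drive Per, Cry and Nr1d genes, whose products then repress it, and Dbp, Tef and Nfil3 pass the rhythm on through D-box sites. Of 16 clock genes, 5 were higher and 11 lower in Q92, 2 and 5 of these with an unadjusted p under 0.05 (against 2.81% and 2.38% of all genes), and none passed the adjusted test. The median difference was -0.09. Dbp (ENSMUSG00000059824, chromosome 7 from 45705088 to 45710203) lay at 48.5, 54.5 and 65.1 CPM in Q92, against 62.8, 70.5 and 76.5 CPM in Q20. In 7 of the 8 Q92 libraries it was under all of Q20. The log2 difference was -0.35 ± 0.09 (interval -0.52 to -0.17, adjusted p = 0.43), with -0.45 in males and -0.22 in females. Dbp overlaps Sphk2 on the other strand, which differed by 0.14.

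Arntl, the activator of the loop, stood the other way from Dbp. It lay at 30.9, 38.4 and 41.6 CPM in Q92, against 28.6, 33.4 and 36.0 CPM in Q20, a difference of 0.18 ± 0.06 (adjusted p = 0.66). Nfil3, which binds the same D-box sites as Dbp and represses, lay at 5.73, 10.0 and 12.2 CPM in Q92, against 5.75, 7.62 and 9.81 CPM in Q20 (0.34 ± 0.11, adjusted p = 0.67). Both genes overlapped between the groups. The repressors Cry1 and Nr1d2 were lower, with -0.24 ± 0.08 (adjusted p = 0.66) for Cry1, at 14.8, 16.6 and 20.2 CPM in Q92, against 17.9, 19.2 and 24.2 CPM in Q20, and with -0.12 ± 0.05 (adjusted p = 0.93) for Nr1d2. Bhlhe41 (chromosome 6 from 145858243 to 145865558), a further repressor, lay at 36.6, 39.9 and 43.3 CPM in Q92, against 40.6, 45.1 and 52.5 CPM in Q20 (-0.21 ± 0.06, adjusted p = 0.51). These 5 and Dbp and Tef are the 7 clock genes with an unadjusted p under 0.05, while Per1 (0.19 ± 0.14) had none.

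Dbp was set against WT and the other alleles. Q92 differed from WT by -0.38 ± 0.09 in Dbp (adjusted p = 0.15), -0.21 in Bhlhe41 and -0.15 in Tef. Against the shared Q20 libraries, Dbp differed by -0.36 in Q80, -0.21 in Q111, -0.13 in Q140, -0.39 in Q175 (adjusted p = 0.001) and 0.04 in WT. At 2 and 6 months the Dbp difference of Q92 from Q20 was 0.16 and 0.06, and the median of the clock list was 0.04 and 0.06. The labels do not give the time of day of dissection, and its part in these values was not tested.

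Immediate early genes are switched on within minutes by neuronal firing, and encode transcription factors (Fos, Fosb, Egr, Nr4a, Npas4) and effectors (Arc, Nptx2). All 20 listed genes were tested and all 20 were higher in Q92, 12 with an unadjusted p under 0.05 (against 2.81% of all genes), and none passed the adjusted test. The median log2 difference was 0.42. By sex it was -0.02 in females, with 9 of 20 positive, and 0.91 in males, with 20 of 20 positive. The summed level of the list lay at 1161, 1339 and 1520 CPM in female Q92 libraries (lowest, median and highest of 4), against 1108, 1546 and 1617 CPM in female Q20 libraries, which overlapped. In male Q92 libraries it lay at 1558, 1846 and 2227 CPM, against 729, 969 and 1291 CPM in male Q20 libraries, which did not overlap.

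Fosb, a subunit of AP-1 whose stable splice form builds up with repeated firing, had the smallest p of the list. In males Fosb lay at 15.2, 27 and 30.4 CPM in Q92, against 7.78, 9.90 and 14.9 CPM in Q20. In females it lay at 11.5, 13.1 and 17.5 CPM in Q92, against 9.41, 14.2 and 15.8 CPM in Q20. The male groups did not overlap and the female groups did, and over both sexes the difference was 0.66 ± 0.19 (adjusted p = 0.51). In males Fos lay at 42.5, 59.2 and 83.7 CPM in Q92, against 8.87, 21.9 and 32.3 CPM in Q20, and in females at 29.3, 34.6 and 40.7 CPM in Q92, against 30.5, 35.3 and 41.6 CPM in Q20. Over both sexes Fos differed by 0.76 ± 0.25, Egr2 by 0.85 ± 0.33, Egr4 by 0.65 ± 0.24 and the synaptic protein gene Nptx2 by 0.34 ± 0.10, with adjusted p-values of 0.51 to 0.93. Junb (0.59), Fosl2 (0.48), Btg2 (0.45), Npas4 (0.44), Nr4a1 (0.43) and Egr3 (0.41) also had unadjusted p-values under 0.05, while Arc (0.51), Bdnf (0.12) and Nr4a2 (0.10) did not.

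Within males alone, a fit of 4 Q92 and 4 Q20 libraries beside the other male libraries called 16 of 17249 genes (0.0928%), all of them higher in Q92. Fosl2 rose by 0.99 ± 0.14 (adjusted p = 0.0015) and Fosb by 1.23 ± 0.18 (adjusted p = 0.002), and these were the 2 called genes of the immediate early list. Ptgs2 rose by 0.60 ± 0.09, Apold1, an early-response gene of endothelium, by 1.59 ± 0.26, and Ccn1, a secreted matrix protein, by 1.52 ± 0.26. Gem, a small GTPase, rose by 1.21, the kinase gene Sik1 by 1.24, the phosphatase gene Dusp5 by 1.04, Arl4d by 1.2, Tiparp by 0.83, Adamts1 by 0.76, Csrnp1 by 0.75, Pvr by 0.57 and Nedd9 by 0.52. The smallest p was that of Arid5a, an RNA-binding protein that stabilises cytokine transcripts, at 11.7, 17.3 and 17.9 CPM in male Q92 libraries, against 8.46, 9.16 and 9.39 CPM in male Q20 libraries (0.83 ± 0.10, adjusted p = 0.00024). The last of the 16 is a gene model with a clone name. Within females alone, edgeR called 0 of 17213 genes (0%), with 931 at an unadjusted p under 0.05, and none of the 16 male genes reached an unadjusted p of 0.05 there.

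The difference between the sexes was tested as an interaction. In edgeR 0 genes passed (0%), with 650 at an unadjusted p under 0.05 and the smallest adjusted p, 0.061, for Arid5a, whose effect in females minus that in males was -0.89 ± 0.17. DESeq2 called 18 genes, 16 of them with the smaller effect in females, 10 shared with the male fit and 3 from the immediate early list. Whether the sexes differed in any gene thus depended on the tool. Leaving out each of the 8 male libraries in turn, an alternative added after the data were seen, gave 4 to 29 calls in males. It gave 4 without male 4, 9 without male 1, 12 without male 2 and 27 without male 3 of Q92, and 4, 29, 6 and 7 without males 1, 2, 3 and 4 of Q20. Of the 27, 23 were higher and 4 lower, and in the other 7 fits every call was higher. Arid5a, Fosl2, Fosb and Ptgs2 passed in all 8 of these fits.

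The male values were set beside those of further groups. WT males lay at 753, 1025 and 1456 CPM for the list sum, and overlapped male Q20 but not male Q92, whereas Q80 males lay at 1738, 2012 and 2117 CPM. Q111 males lay at 1151, 1217 and 1534 CPM and Q175 males at 988, 1193 and 1337 CPM, and both groups overlapped male Q20 and lay below every male Q92 library. Q140 males, at 1328, 1538 and 1720 CPM, overlapped male Q92 and not male Q20. Against WT, Fosb differed by 0.73 in Q92 over both sexes (adjusted p = 0.35), and the median of the list was 0.37. At 2 and 6 months the list median for Q92 against Q20 was 0.02 and -0.26, in other animals. Names of the Q92 male libraries carry tokens that end in B0001 or B0002. Those of Q80 and Q140 males end in B0001, those of Q20, WT and Q111 males in B0009, and those of Q175 males in B0582. Male groups with B0001 or B0002 had higher medians of the list sum than those with B0009 or B0582. Female groups showed no such split. With tokens ending in B0005 or B0006, their medians were 1339 CPM in Q92, 1411 in Q80 and 1382 in Q140. With B0013 they were 1546 CPM in Q20, 1400 in WT and 1250 in Q111, and with B0586 1216 CPM in Q175. The labels do not say what the token means. In Q92 against Q20 it cannot be told apart from the allele and housing, and its part was not tested. Without the 6 libraries of lowest correlation, the list median of Q92 against Q20 at 10 months was 0.46.

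**Figure D4:**
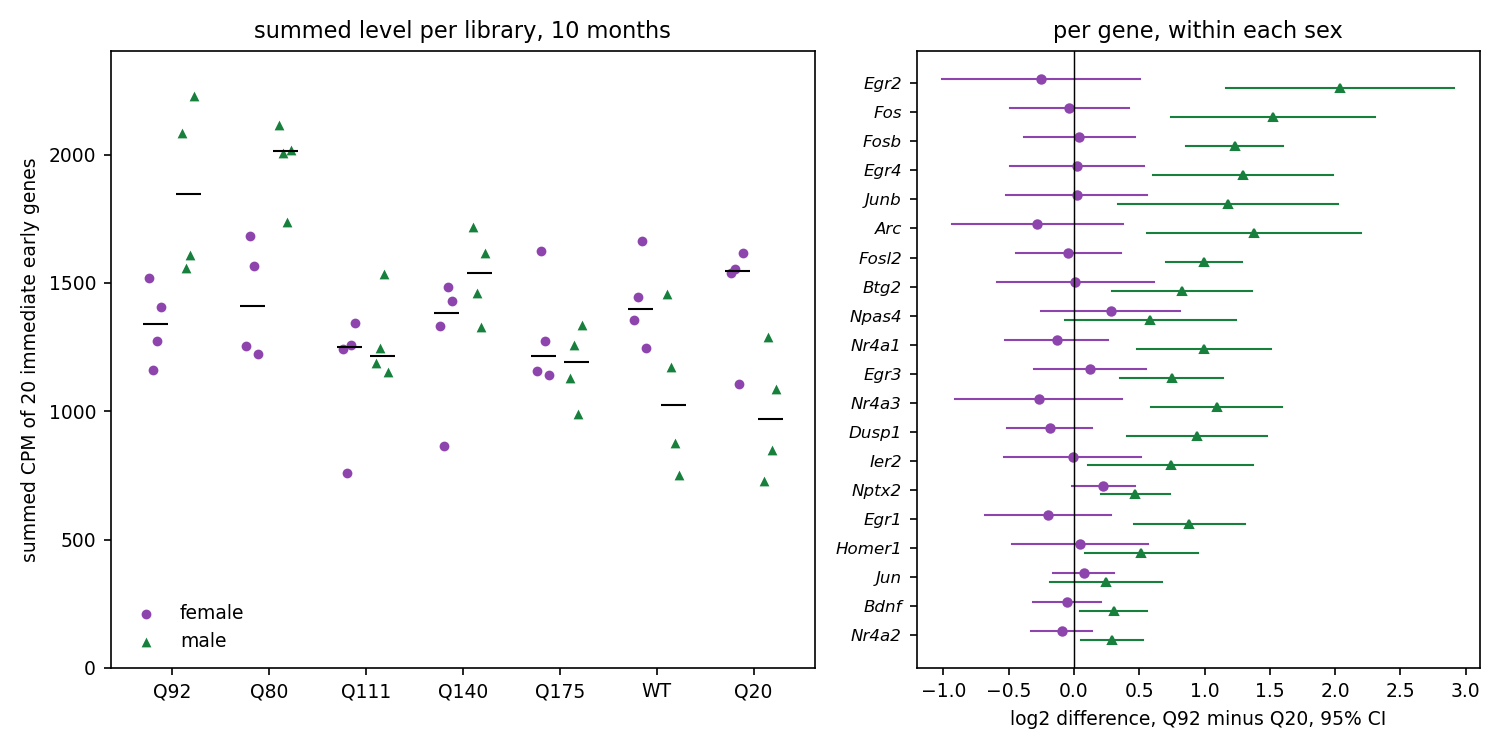
Left, the summed CPM of 20 immediate early genes (y axis, from 0) in each library of the 7 genotypes at 10 months, females and males as separate symbols. Right, the log2 difference, Q92 minus Q20, of each gene with its 95% confidence interval within females and within males: all 20 male values lie above 0, and the female values lie around 0.

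Cell type markers were looked at beside these genes. The labelled tissue was met by Slc17a7, the vesicular transporter of cortical glutamate neurons, at 894 to 1096 CPM in Q92 and 937 to 1060 CPM in Q20, and by the cortical layer factor Tbr1, at 115 to 128 CPM in Q92 and 115 to 131 CPM in Q20. The striatal receptor Drd1 lay at 9.85 to 17.9 CPM in Q92 and 9.58 to 15.3 CPM in Q20. In bulk tissue, fewer cells of a type and less RNA per cell cannot be told apart. Of 24 oligodendrocyte and myelin genes, 19 were higher in Q92, 6 with an unadjusted p under 0.05 (against 2.81% of all genes) and none adjusted, with a median of 0.08, and at 6 months the median was -0.09. Enpp6, an enzyme that splits choline phospholipids and marks new oligodendrocytes, lay at 5.36, 5.59 and 7.23 CPM in Q92, against 2.49, 4.85 and 5.28 CPM in Q20. Its groups did not overlap (0.42 ± 0.12, adjusted p = 0.51). Gjb1, a gap junction gene of these cells, differed by 0.23, the lineage factor genes Olig1 and Olig2 by 0.26 and 0.19, and the myelin gene Mag by 0.14. The summed level of the list lay at 5613, 6093 and 7068 CPM in Q92, against 5613, 6103 and 6687 CPM in Q20, with full overlap.

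Vascular and meningeal markers were read within each sex, with no test of the sexes' difference. Over all 17219 genes, 8641 were higher in Q92, and 2.81% were higher and 2.38% lower with an unadjusted p under 0.05. Of 14 endothelial genes 12 were higher in Q92, with 3 at an unadjusted p under 0.05, the lactate transporter Slc16a1 (0.20), the junction protein Esam (0.12) and VE-cadherin, Cdh5 (0.15). Their median was 0.12, with 0.19 in females and -0.01 in males. Of 12 meningeal and fibroblast genes 9 were higher, with a median of 0.53 in females and -0.20 in males. Of 12 pericyte and smooth muscle genes 9 were higher over both sexes. Their median was 0.27 in females, with 11 positive, and -0.13 in males, with 2 positive. The pericyte channel Kcnj8, which had the smallest p of that list, differed by 0.24 ± 0.08 over both sexes (adjusted p = 0.67). Of 22 interneuron genes 18 were higher, and of these the peptide gene Crh reached an unadjusted p under 0.05 (0.22). Of 18 reactive glia genes 16 were higher, with Itgax at 0.55 ± 0.25, while the chemokine Cxcl10 was at -0.81 ± 0.39, both with an unadjusted p under 0.05. Cxcl10 lay at only 0.030 to 0.268 CPM in Q92. Over the alternatives its difference ranged from -1.05 to -0.15, and that of Itgax from 0.22 to 0.66.

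Choroid plexus is the tissue in the brain's ventricles that makes cerebrospinal fluid. All 16 listed genes of choroid plexus and ependyma were lower in Q92, none with an unadjusted p under 0.05, and the median was -1.28. The summed list lay at 267, 298 and 1691 CPM in Q92, against 281, 1221 and 2332 CPM in Q20. Both groups held libraries near 300 CPM and others past 1000 CPM. Ttr, transthyretin, lay at 15, 21.4 and 985 CPM in Q92, against 20.6, 610 and 1376 CPM in Q20 (-1.48 ± 1.13, adjusted p = 0.99). Against WT the list median was -0.02. The part of choroid plexus in the other differences was not tested.

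A list of 20 cortex genes that follow repeat length in this series was read at this length. The list was chosen on these samples and is no independent evidence of the direction or the size of these differences, those of Q175 included. Of the 20, 13 were higher and 7 lower in Q92 than in Q20, 2 with an unadjusted p under 0.05 (against 5.19% of all genes in either direction), Enpp6 and the interleukin receptor Il12rb1 (0.61 ± 0.21). The median size of the difference was 0.052 in Q92, against 0.50 in Q175 over the same Q20 libraries. Cldn14, a claudin of tight junctions, differed by 0.22 in Q92 and 1.75 in Q175, Gpr83, a receptor, by -0.08 and -0.54, and Arpp21, a phosphoprotein of cAMP signalling, by -0.02 and -0.34.

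Direct tests set Q92 against its neighbours without Q20. Against Q175, 1912 of 17219 genes (11.1%) passed in edgeR, 1090 higher and 822 lower in Q92, and 57.0% were thus higher, whereas limma on log2 FPKM values gave 39.5% and 38.6% higher with pseudocounts of 0.1 and 1. Against Q111, edgeR called 0 genes (0%), with 1061 at an unadjusted p under 0.05, and DESeq2 called 9. Against Q80, 1 gene (0.00581%) passed. This was Hspb3, a small heat shock protein, at 1.84, 2.02 and 2.38 CPM in Q92, against 1.02, 1.52 and 1.82 CPM in Q80 (0.45 ± 0.08, adjusted p = 0.027). The call was lost in DESeq2, with the replicate block, without the filter on low counts and without the sex term. It was also lost without the libraries of lowest correlation. A fit with a term for the L token of library names, which left out libraries whose names lack a D token, lost it too.

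Against WT, 3 genes (0.0174%) passed, and 2 of them lie near Htt. Abhd1, a hydrolase of the abhydrolase family, lay at 4.06, 5.11 and 6.38 CPM in Q92, against 1.32, 1.86 and 4.87 CPM in WT, and rose by 1.31 ± 0.19 (adjusted p = 8.7e-05). Atraid, a membrane protein, lay at 35.5, 39.3 and 42.3 CPM in Q92, against 43.2, 47.9 and 49.7 CPM in WT, and fell by 0.29 ± 0.06 on the log2 scale (adjusted p = 0.021). The Atraid groups did not overlap, and Abhd1 overlapped in its range. How many of all genes did not overlap between Q92 and WT was not counted. Q20 lay with Q92 in both genes, at 4.72, 5.23 and 5.81 CPM for Abhd1 and 37.1, 40.3 and 42.8 CPM for Atraid, and Q92 differed from Q20 by -0.02 and -0.05. The genes stand at -3.88 and -3.79 Mb from Htt, and overlap Preb and Slc5a6 on the other strand. The third gene, Ccdc190 on chromosome 1, rose by 0.27 ± 0.05 (adjusted p = 0.021), and differed from Q20 by 0.16 (adjusted p = 0.66). On log2 FPKM values the calls of Atraid and Ccdc190 were lost, and that of Ccdc190 also without the sex term (adjusted p = 0.51).

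Neighbours of Htt were counted within 5 Mb on each side, where 120 genes were tested. Against Q20, 6 of the 120 (5.0%) had an unadjusted p under 0.05, close to the 5.19% elsewhere. These were Cenpa, the centromeric histone (0.37), Krtcap3 (0.26), Fosl2, the ribokinase gene Rbks (-0.27), the vitamin transporter gene Slc5a6 (-0.09), and Drc1. Against WT, 12 of the 120 (10.0%) had such a p, against 4.32% elsewhere.

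**Figure D5:**
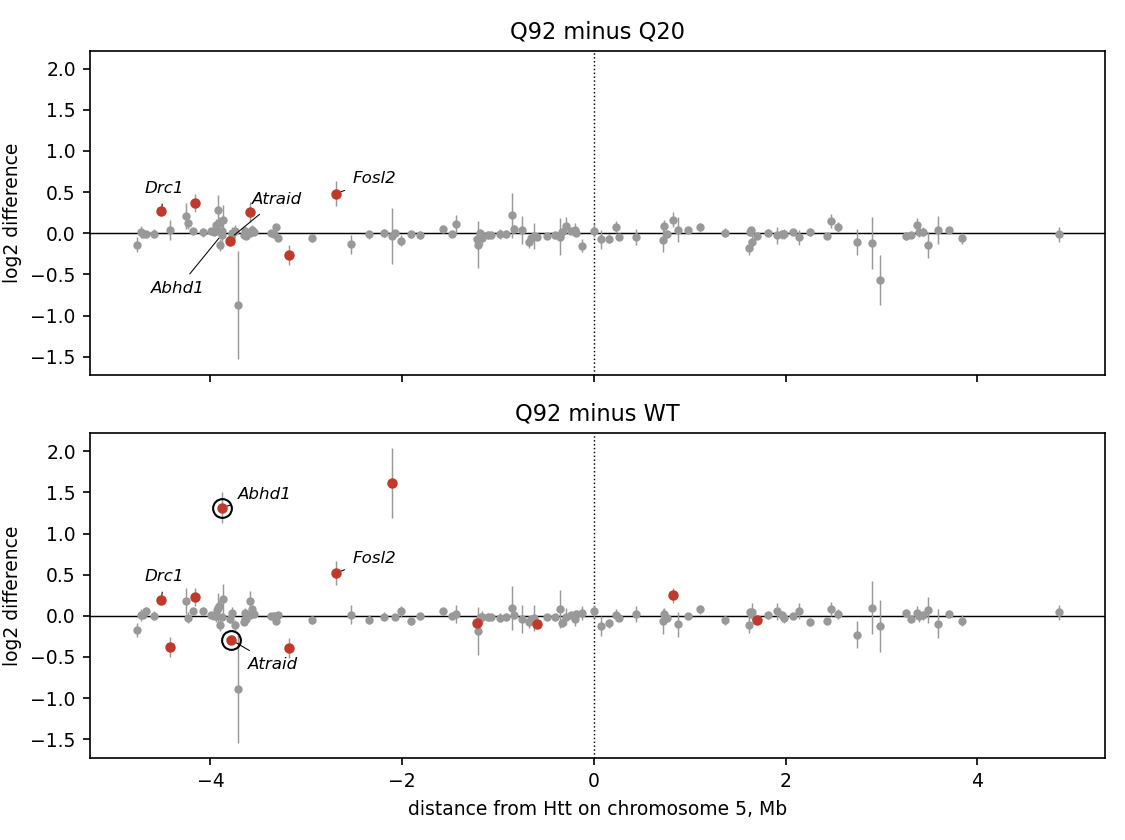
Log2 difference with its SE (y axis) of each of the 120 tested genes within 5 Mb of Htt by distance in Mb (x axis), Q92 minus Q20 above and Q92 minus WT below, with unadjusted p-values under 0.05 in red and adjusted ones circled. Abhd1 (1.31) and Atraid (-0.29) are circled against WT, and no gene is circled against Q20.

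Whether Q92 differed from Q20 more at 10 than at 6 months was tested over 48 libraries of the 3 ages. Of 17304 genes 57 (0.329%) passed, 10 with a more positive difference at 10 months and 47 with a more negative one. Egr4 gave 1.34 (adjusted p = 0.016), the LIM protein gene Pdlim4 0.39, the cytokine receptor gene Csf2ra 0.41 and the Hippo coactivator gene Wwtr1 0.26. The 47 included Cps1 of the urea cycle (-3.54), Apoa1 (-3.89), Apoa2 (-3.06), Apoc1 (-2.05) and the heme carrier Hpx (-2.58), which the liver makes. Their summed level with other liver genes, 15 without Ttr, lay at 26.3, 90.9 and 150 CPM in Q92 at 6 months, against 1.24, 1.68 and 11.6 CPM in Q20 at 6 months. At 10 months it lay at 1.10, 1.67 and 1.89 CPM in Q92, against 1.21, 1.64 and 1.92 CPM in Q20, with full overlap. The part of liver RNA in the comparisons with 6 months was not tested. Of the 47 genes, 38 were called at 6 months and 32 had a mean under 1 CPM. Without the libraries of lowest correlation, 25 genes passed and 19 of the 57 were among them, and the calls of Egr4, Pdlim4, Csf2ra and Wwtr1 were lost. Between 10 and 2 months edgeR called 0 genes (0%), with 1361 at an unadjusted p under 0.05, and DESeq2 called 8.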

How the data were processed

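Cortex polyA RNA of the knock-in and WT mice was sequenced on HiSeq instruments, after column extraction from frozen tissue and a Bioanalyzer check, per the labels' protocols. The authors deposited estimated counts per gene, of which 17.7% of values were not whole (tolerance 1e-06), and these were rounded to whole numbers. The authors also deposited FPKM values, scaled by gene length and library size, which served only as an alternative. The submitters' processing notes name CASAVA 1.8.2. The aligner, genome build and annotation were not given in the sources used here. Of 39179 gene IDs, 37607 had a symbol, from GENCODE M21 (GRCm38) or, for IDs absent there, from another list of gene names. Positions are those of GENCODE M21, and IDs without a symbol held 0.318% of counts. Whether counting used strand is not given, so genes that overlap on opposite strands cannot be told apart by it.

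The members and gene lists (37) were chosen with earlier results of these data known. Counts of the 56 libraries of 10 months (30140657 to 43744151 per library) were filtered with filterByExpr by genotype (minimum count 10, minimum total 15), scaled by TMM and tested two-sided with edgeR 4.0.16 quasi-likelihood fits, with sex as a covariate and Benjamini-Hochberg adjustment over all genes tested (threshold 0.05). Each SE is the size of the estimate divided by the root of its F value, and intervals are 95%. Ages and sexes were compared as interactions, in 48 and 56 libraries. Alternatives were DESeq2 1.42.0, its size factors, no filter, no sex term, other sets of libraries, a replicate block, limma 3.58.1 on log2(FPKM + 0.1) and log2(FPKM + 1), and leaving out libraries. The contrast of Q92 with Q175 and fits of 2 and 6 months without libraries of low correlation (under 0.99 on log2 CPM, prior count 5) were added after the data were seen. The prior count of 5, on which the set of libraries of lowest correlation rests at every age, was also chosen after correlations were seen. Named genes were the 6 with the smallest p each way, Htt, up to 3 of each list and 5 each way of interactions and of Q92 against WT where these passed, leaving out clone names and 1 gene not reported here. Genes were added where a count of few genes or a gene near Htt needed naming. No 2 libraries of a group were alike within counting error (chi-square per degree of freedom at least 3.93 over 56 pairs). The tests were tested on simulated data. R 4.3.3 and Python 3.11.15 were used.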

Additional observations from a re-analysis of the deposited data

Results flagged for a closer look

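Among 118 groups of 8 libraries, 8 held a library that stood apart from the other 7 by Dixon's 95% criterion, where chance gives about 1 in 20. Htt was lowest in male 2 of Q92, at 154 CPM against 191 to 221 CPM in the other Q92 libraries, and in male 2 of Q20, at 146 CPM against 186 to 213 CPM. Both libraries are among those of lowest correlation. Male 2 of Q92 was also highest for the stress gene Ddit4, at 48.1 CPM against 19.6 to 32.7 CPM, and for the cell cycle inhibitor Cdkn1a, at 37.7 CPM against 14.6 to 23.6 CPM. Drc1 was highest in male 3 of Q92, at 18.2 CPM against 14.8 to 16.1 CPM, so that every other Q92 library also lay above the Q20 range. Cxcl10 was lowest in male 1 of Q92, at 0.030 CPM against 0.166 to 0.268 CPM. Arpp21 was highest in female 3 of Q20, at 414 CPM against 374 to 391 CPM. Npas4 was highest in male 4 of Q20, at 32.1 CPM against 14.8 to 22.9 CPM.

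The difference of Q92 from Q20 itself differed between 10 and 6 months, by an interaction test in edgeR with adjusted p under 0.05, for 9 named genes. It was 1.34 higher on the log2 scale at 10 months for Egr4, 0.39 for Pdlim4, 0.41 for Csf2ra and 0.26 for Wwtr1. The liver genes gave -3.54 for Cps1, -3.89 for Apoa1, -3.06 for Apoa2, -2.05 for Apoc1 and -2.58 for Hpx. Albumin, the main protein of the liver, lay at 15.1, 48.1 and 82.5 CPM (lowest, median and highest, unscaled totals) in Q92 at 6 months. At that age 5 Q92 libraries were among those of lowest correlation.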

How the results depend on the processing

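For Q92 against Q20 at 10 months, the count of 0 calls held under DESeq2, its size factors, no filter, no sex term, FPKM values and without the libraries of lowest correlation. A fit of only the 16 libraries called 1 gene (Dbp, -0.34, adjusted p = 0.035), a fit of 48 libraries of all ages called 1 (Drc1, 0.27, adjusted p = 0.031), and leaving out each of the 16 libraries called 0 to 0, with at most 1227 genes at an unadjusted p under 0.05. Replicate numbers did not pair the libraries (same-number correlations of -0.14 to 0.38, 2 of 8 over 0.1, and 1 of 8 highest with its own number), and the replicate block left 0 calls for Q92 against Q20 (870 unadjusted) and 0 in place of 1 against Q80. Against Q80, DESeq2, a term for the L token in library names, no filter, no sex term and leaving out the libraries of lowest correlation also gave 0. Against WT, in place of 3, DESeq2 gave 5, FPKM values 1 with either pseudocount, and leaving out the libraries of lowest correlation 9. Against Q111, in place of 0, DESeq2 gave 9 and leaving out those libraries 2. Against Q175, the L token gave 923 in place of 1912, with 64.2% higher. The fits with the L token also left out libraries whose names lack a D token, male 2 of Q92 and female 4 of Q175. For the sexes' difference, in place of 0, DESeq2 gave 18 and FPKM values 1 with either pseudocount. Q92 against Q20 within 1 sex is another comparison, which gave 0 in females alone and 16 in males alone. The males gave 4 to 29 when 1 male library was left out. For 10 against 6 months, in place of 57, DESeq2 gave 104, FPKM values 91 and 90, and leaving out the libraries of lowest correlation 25. For 10 against 2 months DESeq2 gave 8 in place of 0. Leaving out the libraries of lowest correlation gave 97 in place of 170 at 6 months and 3 in place of 5 at 2 months. Of 1947 values of single genes under these alternatives, 1871 kept their direction and side of the threshold, 66 lost a call, 8 gained one, and 2 changed sign, Htt to -0.0186 without male 2 of Q20 (up to 0.0797 without male 2 of Q92) and Arpp21 to 0.00 without the libraries of lowest correlation. The median over all genes moved by at most 0.025. The causes were not tested. Low depth limits genes under 1 CPM, whose intervals are wide.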

Other observations

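Stress and damage genes that the comparisons above do not describe were read list by list. In the stress list of 22 genes, 11 were higher and 11 lower in Q92. Unadjusted p-values were under 0.05, as for 2.81% of all genes higher and 2.38% lower, for the transcription factor Atf3 (0.62 ± 0.26), Ddit4 (0.29 ± 0.14) and the chaperone of the endoplasmic reticulum Pdia4 (-0.22 ± 0.09). Without male 2 of Q92 the difference of Ddit4 was 0.13, and without male 4 of Q92 that of Atf3 was 0.40. Pdia4 lay at 26.8, 29.0 and 33.4 CPM in Q92, against 28.2, 33.2 and 42.7 CPM in Q20, and the groups overlapped. Among 15 tested p53 targets, Cdkn1a differed by 0.46 ± 0.17 (adjusted p = 0.88) and by 0.28 without male 2 of Q92, and the list median was 0.01. All 13 mitochondrially encoded transcripts were lower in Q92, none with an unadjusted p under 0.05, and their median was -0.04. Their summed level lay at 91104, 100842 and 124370 CPM in Q92, against 97375, 105580 and 115148 CPM in Q20, and the groups overlapped. Of 16 heat shock and chaperone genes, 3 were higher and 13 lower, none with an unadjusted p under 0.05. Their median was -0.06, and -0.01 without the libraries of lowest correlation. Over all 17219 genes, 8578 were lower in Q92. Among 19 huntingtin partners, the clathrin coat protein gene Hip1r differed by 0.13 ± 0.06 (adjusted p = 0.94), at 78.6, 82.7 and 92.8 CPM in Q92, against 69.6, 76.5 and 86.9 CPM in Q20.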
